A study of Mus musculus with 2 samples.

Results

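The surfactant protein genes Sftpc, Sftpb, Sftpa1 and Sftpd were followed through 2 RNA-seq libraries of adult mouse lung. They were taken by gene symbol and are 4 of the 43346 genes quantified. All 4 had a mean count above the minimum of 50 that was set for comparing the libraries, and they carried 9 quantified transcripts. Both libraries came from lung of C57BL/6J mice, adult littermates aged 8 weeks, with males and females pooled. Polyadenylated RNA longer than 200 nt, depleted of ribosomal RNA, was read as stranded pairs of 76 nt with synthetic spike-in RNAs added. No treatment, genotype or second condition was part of the study. The labels call the libraries biological replicates 1 and 2 of this single group, place both under one donor record and do not say how many animals were used. Part of the spread between them may therefore be technical. No test between groups was possible and no p-value is given. Values are in the order replicate 1, replicate 2, or are a mean ± SD over n = 2 libraries.

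Pulmonary surfactant is a film of phospholipid and protein that lowers surface tension at the air-liquid interface and keeps the alveoli from collapsing. Alveolar type 2 cells make it, store it in lamellar bodies and secrete it. Sftpb and Sftpc encode the small hydrophobic proteins SP-B and SP-C, which are cut from larger precursors and speed the spread of lipid into the film. Sftpa1 and Sftpd encode SP-A and SP-D, soluble collectins with a collagen-like stalk and a lectin head that bind microbial sugars. Club cells of the small airways also make SP-A, SP-B and SP-D, whereas SP-C is the member most specific to type 2 cells.

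The coding sequences show the difference between the hydrophobic members and the collectins, and they show the splice choice of Sftpb on which several results turn. All are read 5′ to 3′ on the coding strand from GENCODE M21 transcripts on mm10. The mature SP-C peptide is rich in valine, and Sftpc-201 holds a run of 16 codons for valine, leucine or isoleucine from codon 36. The longest such run is 4 codons in Sftpb-204, 2 in Sftpa1-201 and 5 in Sftpd-201. Codons 28 to 59 of Sftpc-201 lie in exon 2 (chr14:70522639-70522734) and are given with valine codons (GTN) in capitals.
Sftpc-201: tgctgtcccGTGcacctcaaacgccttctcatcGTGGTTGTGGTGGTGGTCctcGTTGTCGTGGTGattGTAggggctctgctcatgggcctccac
The collectins share a collagen-type repeat in which a glycine codon (GGN, in capitals) opens every triplet of codons. Sftpa1-201 has an unbroken run of 13 such triplets, from codon 28 to codon 66, across exons 2 and 3 (between 41132539 and 41132847 of chromosome 14).
Sftpa1-201: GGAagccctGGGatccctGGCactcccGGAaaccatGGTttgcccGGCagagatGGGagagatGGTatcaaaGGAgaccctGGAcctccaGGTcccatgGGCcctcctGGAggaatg
Sftpd-201 has a run of 59 triplets, from codon 45 to codon 221, that starts in exon 2 and ends in exon 6. The first 22 triplets of it lie between 41177036 and 41183000 of chromosome 14.
Sftpd-201: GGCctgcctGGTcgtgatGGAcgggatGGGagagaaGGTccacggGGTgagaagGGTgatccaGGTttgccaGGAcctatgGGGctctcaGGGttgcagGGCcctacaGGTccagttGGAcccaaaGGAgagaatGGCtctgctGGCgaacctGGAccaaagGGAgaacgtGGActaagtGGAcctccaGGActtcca
Exons 3 to 6 of Sftpd-201 are each 117 bases long, which is 13 triplets. The longest run of this kind was 2 triplets in Sftpb-204 and 2 in Sftpc-201.

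Sftpb has alternative acceptor sites for intron 6, 70 bases apart. Transcript Sftpb-202 uses the upstream site, so that exon 7 opens with the 70 bases in capitals (chr6:72309756-72309825), and Sftpb-204 joins exon 6 to the base after them. Each line shows 24 bases on either side.
Sftpb-202: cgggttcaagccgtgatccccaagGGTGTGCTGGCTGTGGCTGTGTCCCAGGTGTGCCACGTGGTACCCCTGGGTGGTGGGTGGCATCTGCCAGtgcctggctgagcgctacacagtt
Sftpb-204: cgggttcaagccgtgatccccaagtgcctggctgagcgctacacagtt
The stretch matters for the reading frame. In Sftpb-202 the frame enters it and meets a stop codon in exon 7, after 241 codons and 424 bases ahead of the last exon junction, and the annotation lists this transcript under nonsense-mediated decay, the pathway that removes transcripts with an early stop. In Sftpb-204 the stretch is skipped, and the frame runs for 354 codons. Another form, Sftpb-201, keeps the stretch except for 4 bases (capitals in the first of these lines, chr6:72309801-72309804), and its frame runs for 376 codons, 22 more than in Sftpb-204.
Sftpb-202, at the gap: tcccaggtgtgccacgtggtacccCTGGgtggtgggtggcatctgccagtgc
Sftpb-201, at the gap: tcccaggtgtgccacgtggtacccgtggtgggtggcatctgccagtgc
A gap of 4 bases is far shorter than the introns that the splicing machinery removes. Sftpb-201 also ends at its stop codon, without the last exon of Sftpb-202. Whether the reads themselves held these 4 bases was not analysed here, so the split between Sftpb-202 and Sftpb-201 says how the annotation divided the reads and not which protein was made.

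Expected counts on gene rows summed to 48234745 and 44182836, and the synthetic spike-ins held 704282 and 461067 counts. The labelled tissue was checked against lists of marker genes. Reads of bulk tissue do not show which cells a marker came from. All 9 other markers of alveolar type 2 cells were above 1 TPM (transcript level scaled per length to a fixed library total) in both libraries, from S100g (33.8 and 26.0 TPM) to Cd74 (1883 and 2072 TPM), as were all 6 type 1 and all 6 club cell markers. The libraries also differed in genes of other tissues. The 5 markers of squamous epithelium summed to 4043 and 0.59 TPM and the 5 of skeletal muscle to 2771 and 56.9 TPM. The 4 of blood summed to 21922 and 61268 TPM, and all 14 were at least 2-fold apart. Of 17334 genes whose mean count reached 10, 1159 were 2-fold higher in replicate 1 and 585 in replicate 2. The lists were chosen with earlier results of these data known, so the count of 14 may partly reflect that choice. In bulk tissue, fewer cells of a type and less RNA per cell cannot be told apart.

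The levels fell in the order Sftpc, Sftpb, Sftpa1, Sftpd in both libraries, with no overlap between neighbours in that order. TPM is scaled per length and can be compared between genes. Sftpc, the gene of SP-C (chromosome 14, 70520949 to 70524081, minus strand), stood at 22806 and 22331 TPM, or 22569 ± 336. It ranked 2 and 4 among all genes, on 489960 and 468165 counts. Sftpb, the gene of SP-B (chromosome 6, 72304610 to 72314371, plus strand), stood at 4944 and 6799 TPM, or 5871 ± 1312, on 230603 and 313365 counts. It ranked 16 and 11. The libraries were close for Sftpc and further apart for Sftpb, the only member whose SD exceeded 10% of its mean.

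The collectins were lower. Sftpa1 (chromosome 14, 41131782 to 41136452, plus strand) stood at 1121 and 1032 TPM, or 1076 ± 63.1, with ranks 79 and 85. Sftpd (chromosome 14, 41172214 to 41185149, minus strand) stood at 245 and 220 TPM, or 233 ± 17.9, with ranks 467 and 533. It rested on the fewest counts, 9893 and 8660. The hydrophobic proteins' genes thus took nearly all of the members' TPM: Sftpc held 78.3% and 73.5%, Sftpb 17.0% and 22.4%, Sftpa1 3.85% and 3.40%, and Sftpd 0.842% and 0.724%.

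**Figure D1:**
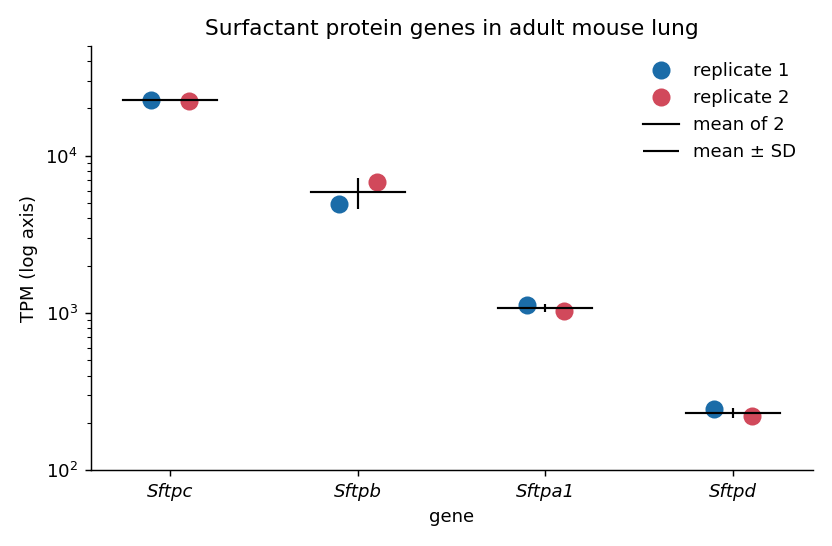
TPM (log axis) of each surfactant protein gene in replicate 1 (blue) and replicate 2 (red), with the mean as a horizontal line and mean ± SD of the 2 libraries as a vertical line. The 4 genes occupy separate levels in both libraries, and the gap between libraries is widest for Sftpb (4944 and 6799 TPM).

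Together the members held 2.98% and 3.09% of the TPM on gene rows (3.03% ± 0.0754). Of expected counts they held 1.66% and 1.94% (1.80% ± 0.196), which are not divided by transcript length.

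The genes nearest to each member in level were found by distance on the log2(TPM + 1) scale over the 2 libraries, which is a likeness of level in these libraries only. Sftpc lay nearest to the small nuclear RNA Rn7sk (20043 and 22812 TPM), the club cell reductase gene Cbr2 (12625 and 12821 TPM) and the alpha-globin gene Hba-a2 (9862 and 25935 TPM). Sftpb lay nearest to Rplp1, a ribosomal protein gene (5401 and 7188 TPM), Actb, which encodes beta-actin (5651 and 5238 TPM), and Rn7s1 (6693 and 7238 TPM). For Sftpa1 these were Tuba1b, Rpl10 and Chil1, between 1007 and 1141 TPM. For Sftpd they were Prelid1, Cox5b and Rgl2, between 213 and 251 TPM.

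None of the 4 members was 2-fold apart between the libraries after scaling by the trimmed mean of M-values (TMM), where 6.66% of 14708 genes were, taking those at or above the minimum mean count of 50. At 1.5-fold, 1 of 4 was, Sftpb, against 19.3% of those genes. Among the 1958 genes that reached a mean count of 5000, a depth that all members reached, 3.32% were 2-fold and 13.2% were 1.5-fold apart. With 4 members, a count of 0 or 1 cannot be told apart from these shares.

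Sftpb was 1.63-fold higher in replicate 2 (exact 95% interval 1.62 to 1.64), a log2 ratio of 0.70. That is larger than the robust SD of the log2 ratio over all genes, 0.46, which corresponds to 0.32 for a single library. Sftpc was 1.15-fold (1.14 to 1.15), Sftpa1 1.12-fold (1.11 to 1.13) and Sftpd 1.05-fold (1.02 to 1.08) higher in replicate 2 on the TMM scale, but on the TPM scale these 3 were lower in replicate 2, with ratios of 0.979, 0.920 and 0.897. Their differences were within that SD, and their direction depends on the scaling. Intervals cover counting error only, and the middle of all tested genes moved with the scaling, from a median log2 ratio of -0.21 on TPM to 0.35 on spike-in counts. Relative to that median, the log2 ratio is the same by construction for every scaling that multiplies a library by 1 factor. On counts it was 0.71 for Sftpb, 0.20 for Sftpc, 0.16 for Sftpa1 and 0.072 for Sftpd, and on TPM it was 0.67, 0.18, 0.086 and 0.048.

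Ratios between members inside one library need no scaling. Sftpc was 4.61 times the TPM of Sftpb in replicate 1 and 3.28 times in replicate 2. The ratio of Sftpb to Sftpa1 was 4.41 and 6.59, and that of Sftpb to Sftpd 20.2 and 30.9. Ratios that leave out Sftpb were closer: Sftpc to Sftpa1 was 20.3 and 21.6, Sftpa1 to Sftpd 4.57 and 4.69, and Sftpc to Sftpd 93.0 and 102. The balance among the 4 genes thus shifted between libraries through Sftpb, while the other 3 kept their proportions to within 1.09-fold. The blood markers were higher in replicate 2 and the squamous and muscle markers in replicate 1, with the sums given above, and their part in the Sftpb difference was not tested.

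The genes around surfactant production mostly stayed within 2-fold, as most of all genes did, counted on those that reached a mean count of 10. Over all 17334 such genes, 1159 were 2-fold higher in replicate 1 and 585 in replicate 2, with a median log2 ratio of -0.019. For lists as short as those below, a count of 0 or 1 cannot be told apart from these shares. Of the 9 other type 2 markers none was 2-fold apart (median 0.12, sum 4659 and 4616 TPM). Among them, Abca3, the lipid pump of the lamellar body, stood at 232 and 215 TPM. Slc34a2, a phosphate transporter, stood at 1084 and 986 TPM, and Lpcat1, an enzyme of surfactant phospholipid synthesis, at 371 and 382 TPM. The 6 club cell markers (median 0.20) and the 6 type 1 markers (median 0.22) also had none. Scgb1a1, the club cell secretoglobin, stood at 122856 and 132546 TPM. The markers of each type went both ways. Log2 ratios ran from -0.48 (Cxcl15) to 0.61 (Lpcat1) in the type 2 list, from -0.17 (Scgb3a2) to 0.59 (Scgb3a1) in the club cell list and from -0.81 (Pdpn) to 0.82 (Aqp5) in the type 1 list. Sftpb at 0.70 lay above the first and second of these ranges and inside the last.

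Of the 13 transcription factors that act on surfactant genes, 1 was 2-fold higher in replicate 2 and none in replicate 1 (median 0.41). It was Cebpa, a CCAAT-binding factor of mature type 2 cells, at 131 and 261 TPM. Nkx2-1, the homeodomain factor of lung epithelium that binds surfactant gene promoters, was the highest of the list by mean TPM, at 236 and 372 TPM (log2 ratio 0.87). The lowest by mean TPM was Tfcp2l1, at 16.5 and 27.2 TPM. Its log2 ratio on TMM-scaled counts was -0.24 (4380 and 3102 counts), opposite to its TPM.

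Of the 6 genes for processing of the precursors, 5 were measured and none was 2-fold apart (median 0.36). Napsa encodes napsin A, an aspartic protease that acts on the SP-B and SP-C precursors, and stood at 516 and 566 TPM. Ctsh encodes cathepsin H, which also takes part, and stood at 84.7 and 144 TPM. Pga5, a pepsinogen gene, had 0 counts in both libraries. The 13 genes of secretory quality control ranged by mean TPM from Dnajb9 (4.85 and 3.84 TPM) to Hspa5, the chaperone BiP (410 and 625 TPM), with none 2-fold apart (median -0.018). The 8 genes of decay of transcripts with an early stop were all above 1 TPM in both libraries, with none 2-fold apart (median -0.049). Upf1, the helicase at the centre of that pathway, stood at 30.6 and 33.3 TPM.

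Genes listed for uptake, as receptors or for turnover by macrophages were lower than the proteins' own genes. Whether each of them acts on surfactant was not tested. Of 10 uptake and receptor genes none was 2-fold apart (median -0.079), with Ccr2, a chemokine receptor gene, at the threshold. Its log2 ratio was -0.998 on 852 and 355 counts, and by TPM (8.21 and 3.69) it was past 2-fold. Adgrf5, a receptor that senses surfactant and limits its pool, stood at 176 and 129 TPM, and Sirpa, which binds the lectin heads of SP-A and SP-D, at 83.7 and 72.9 TPM. Of 6 genes for turnover by macrophages none was 2-fold apart (median 0.17). Csf2, the cytokine GM-CSF that macrophages need to clear surfactant, was at 2.20 and 1.87 TPM, and its receptor gene Csf2ra at 112 and 145 TPM. The 4 alveolar macrophage markers summed to 567 and 468 TPM, with none 2-fold apart.

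Relatives of the members by protein family were mostly low or of general use. Of the 5 other collectins, Colec12, a scavenger receptor, was at 52.2 and 54.2 TPM, and the remaining 4 stayed below 1 TPM in both libraries. Of the 3 that reached a mean count of 10, Mbl1 was 2-fold higher in replicate 2, on 6 and 17 counts. SP-C carries a BRICHOS domain in its precursor. Of 9 other genes with this domain that were found, Itm2b was highest at 1191 and 1259 TPM, and the gastrokine gene Gkn3 was 2-fold higher in replicate 1 (243 and 69 counts). SP-B is a saposin-type protein. Psap, the prosaposin gene, stood at 1142 and 925 TPM, while Psapl1 had 1917 counts in replicate 1 and 9 in replicate 2.

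**Figure D2:**
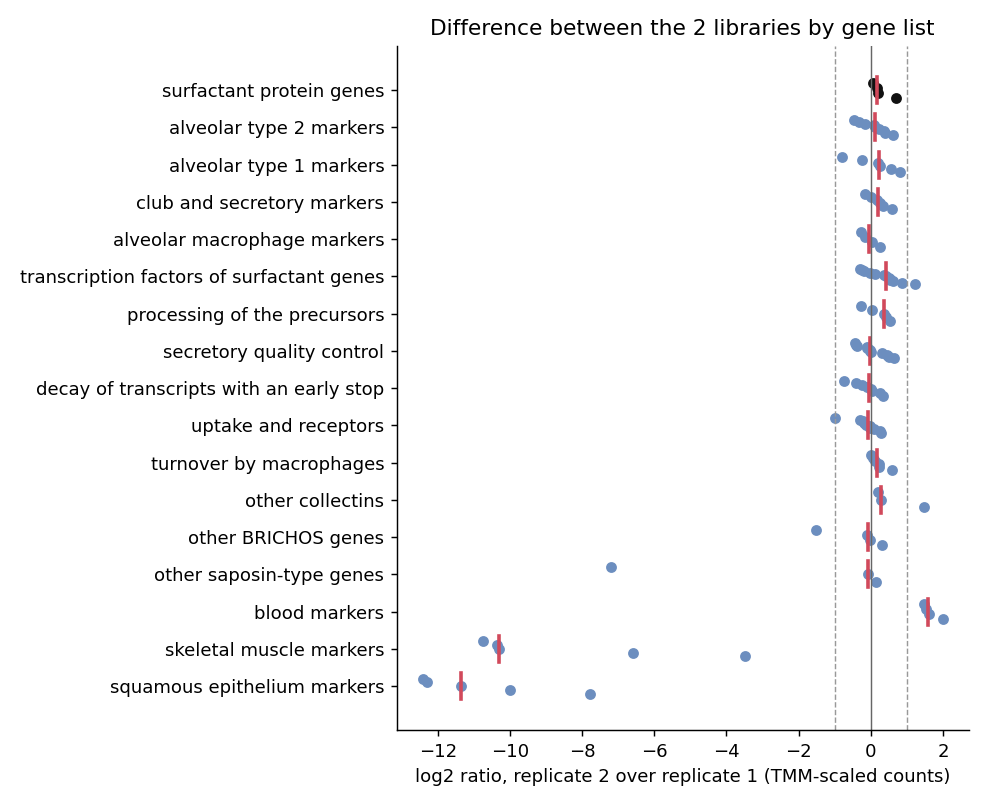
Log2 ratio of replicate 2 over replicate 1 (TMM-scaled counts) for each surfactant protein gene (black) and each listed gene that reached a mean count of 10 (blue), with list medians in red and dashed lines at 2-fold. The 4 members lie between 0.07 and 0.70, where on TPM the 3 other than Sftpb fall below 0, and the blood, skeletal muscle and squamous lists lie beyond 2-fold.

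Sftpc and Sftpd were each quantified as a single transcript, Sftpc-201 and Sftpd-201, at 100% of their gene's TPM. The quantification held no other transcript of either gene, so this share was fixed in advance. GENCODE M21 also lists Sftpc-202 and Sftpd-202, which were not quantified. Sftpb had 5 transcripts and Sftpa1 had 2. Sftpb-202 held 78.5% and 81.1% of Sftpb TPM (79.8% ± 1.87). Sftpb-204, with the downstream acceptor, held 10.6% and 12.3%. Sftpb-203, annotated as keeping an intron, held 10.9% and 6.50%. Sftpb-201, the form with the 4-base gap, held 0.02% and 0.03%, on 35.2 and 55.5 expected counts. Sftpb-205, which keeps the 4 bases as Sftpb-202 does, held 0% and 0.01%. Most of the gene's TPM thus sat in the form annotated for decay, with the reservation on those 4 bases given above.

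The Sftpb forms did not all move alike between the libraries. On the TPM scale, Sftpb-202 had a ratio of replicate 2 over replicate 1 of 1.42 and Sftpb-204 of 1.60, whereas Sftpb-203 had 0.824. In TPM, Sftpb-202 stood at 3881 and 5516, Sftpb-204 at 525 and 838, and Sftpb-203 at 537 and 442. Sftpb-203 starts inside an intron and lacks exons 1 to 4 of Sftpb-202. In the transcript estimates, the difference between libraries in Sftpb was therefore carried by Sftpb-202 and Sftpb-204. How well these estimates separate the forms was not tested. Sftpb-203 and Sftpb-204 together held 20.15% by TPM at the intron 6 choice, against 6.09% of its junction reads. At the last intron their acceptor took 22.4% of junction reads.

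Of protein-coding genes with several transcripts and at least 5 TPM in both libraries, 2.75% of 7175 had a main transcript annotated for nonsense-mediated decay. Of the 2 members with several transcripts, Sftpb had such a main transcript, with the reservation on 4 bases given above, and Sftpa1 did not. The main transcript was the same in both libraries for both, where it differed in 14.2% of 7372 genes. The share of the main transcript moved by 2.64 percentage points in Sftpb and 3.26 in Sftpa1, against a median of 5.19 over the 7372 genes and 4.03 over the 1503 that reached a mean count of 5000.

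Sftpa1 divided between a longer and a shorter form. Sftpa1-202, of 2854 bases, held 55.5% and 58.8% of TPM (57.1% ± 2.31), and Sftpa1-201, of 851 bases, held 44.5% and 41.2%. Both encode the same number of codons, 248. Sftpa1-202 has an additional exon of 33 bases ahead of the coding part and a last exon of 2383 bases, against 407 in Sftpa1-201. By expected counts, Sftpa1-202 held 83.7% and 85.5%, since a longer transcript yields more fragments per molecule. The reads of Sftpa1 therefore rest mainly on Sftpa1-202, and its lead in TPM is smaller.

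**Figure D3:**
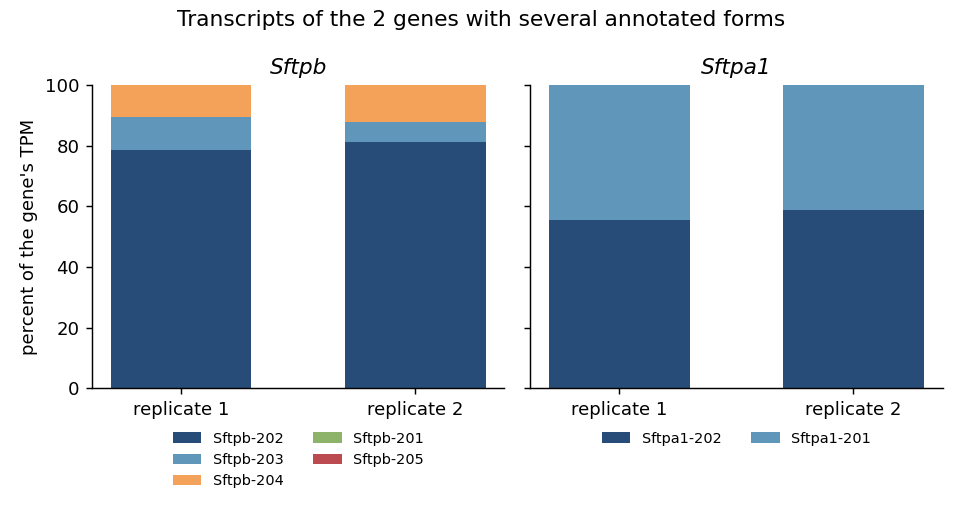
Percent of the gene's TPM on each transcript of Sftpb and Sftpa1 in replicates 1 and 2 (stacked bars from 0 to 100). Sftpb-202 takes 78.5% and 81.1%, and Sftpa1-202 takes 55.5% and 58.8%; Sftpb-201 and Sftpb-205 are too small to be seen.

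The deposited junction list counts reads that cross from one exon to the next, summed over both libraries, and does not rest on the transcript estimates. It uses the older build mm9, on which each member was found once by its chain of intron and exon lengths. The list held 35330315 reads over 447240 junctions, and junctions of the 4 genes held 4.25% of them. All 5 introns of Sftpc-201 were covered by 81310 to 243068 reads, and the highest ranked 5 among all junctions. Of the 13 annotated introns of Sftpb, 12 were listed, with 5746 to 114458 reads, the highest at rank 10. The remaining one is the 4-base gap of Sftpb-201, which is too short for a spliced intron. Its absence from a junction list does not show whether the reads held those 4 bases. The 6 introns of Sftpa1 had 2240 to 25600 reads and the 7 of Sftpd-201 had 840 to 3205. The order of the genes by junction reads was the order by TPM.

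**Figure D4:**
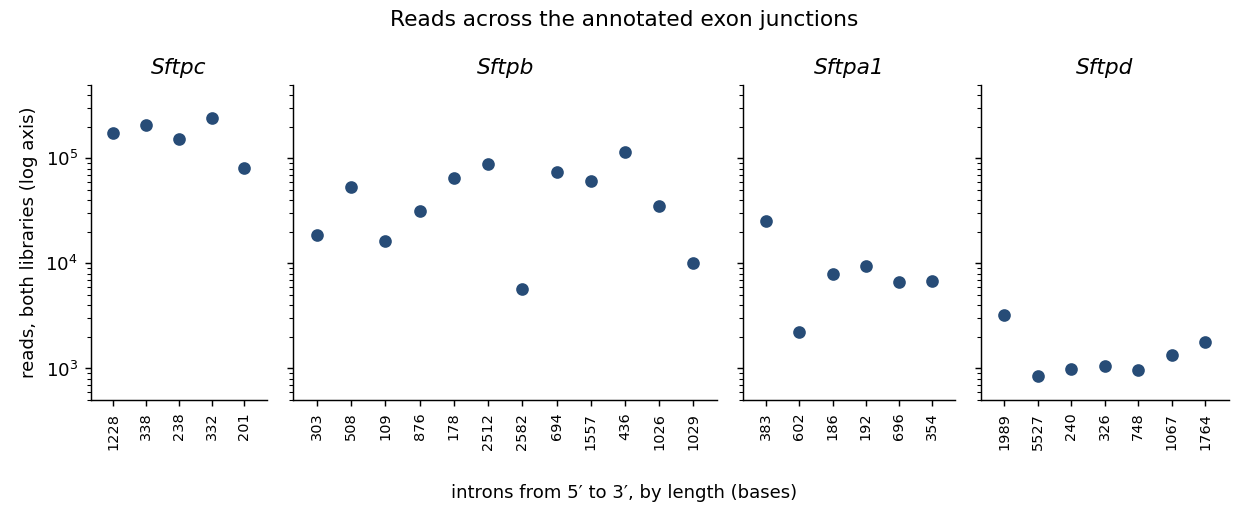
Reads across each listed annotated junction (log axis, both libraries summed) of the 4 genes, ordered from 5′ to 3′ and labelled by intron length in bases. Sftpc runs from 81310 to 243068 and Sftpd from 840 to 3205; the low point within Sftpb is the 2582-base intron of Sftpb-203 and Sftpb-204 (5746 reads).

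At the intron 6 choice of Sftpb shown above, 88592 reads joined exon 6 to the upstream acceptor, by an intron of 2512 bases (chr6:72257238-72259749 on mm9). The downstream acceptor was joined by 5746 reads over an intron of 2582 bases. The upstream site therefore took 93.9% of these reads (Wilson 95% interval 93.8 to 94.1). Sftpb-201 shares this junction, so the count shows the acceptor used and not whether all 70 bases were present. By transcript TPM the forms with that site held 79.9% ± 1.87, a value lower by more than its SD.

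The last intron of Sftpb ends at either of 2 acceptors 3 bases apart. The nearer one (1026 bases, Sftpb-202) had 34867 reads and the further one (1029 bases, Sftpb-203 and Sftpb-204) had 10058, which gives 77.6% (77.2 to 78.0) to the nearer. By TPM the share was 79.8% ± 1.87, also further from the junction value than its SD, but on the other side of it. In the annotation the forms with the downstream acceptor of intron 6 are also those with the further acceptor of the last intron, so a single share of TPM stands against junction shares of 93.9% and 77.6%. No single share equals both.

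In Sftpa1 the first exon joined the additional 33-base exon with 25600 reads and the next exon directly with 2240. The form with that exon thus held 92.0% (91.6 to 92.3) of reads from this donor. On the other side of the 33-base exon, 7969 reads joined it to the following exon, which gives 78.1% (77.2 to 78.9) at the shared acceptor. By TPM, Sftpa1-202 held 57.1% ± 2.31, below both. The junction values are sums and have no SD, and the counts on the 2 sides of the small exon differ from each other by more than counting error.

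**Figure D5:**
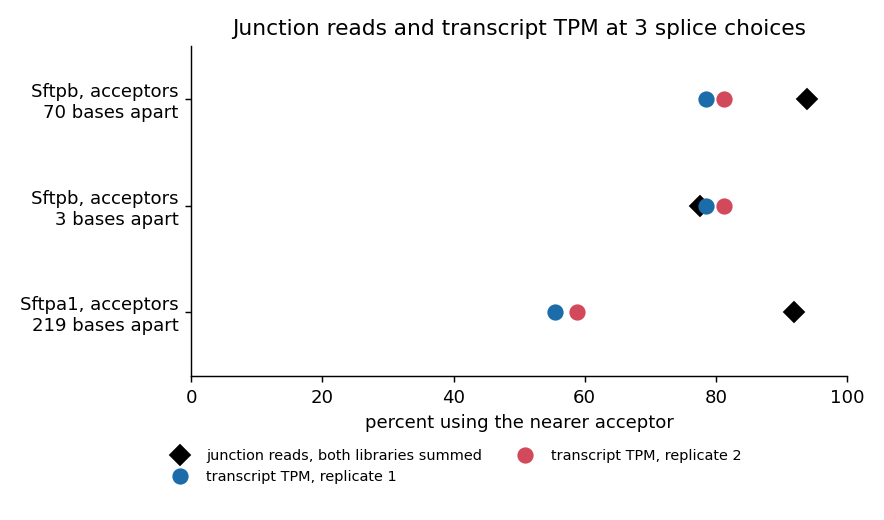
Percent using the nearer acceptor at 3 splice choices, by junction reads of both libraries summed (black) and by transcript TPM in replicate 1 (blue) and replicate 2 (red). Junction reads give 93.9%, 77.6% and 92.0% from top to bottom, and TPM gives means of 79.9%, 79.8% and 57.1%.

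In Sftpd the exon junctions along the collagen-like stalk, whose repeat is printed above, were all covered. The junctions that flank the 4 exons of 117 bases had 840, 979, 1065, 972 and 1335 reads. The first junction, ahead of the coding part, had 3205 and the last had 1778. A junction of 62 reads skipped the 84-base exon 7, against 1335 and 1778 on either side of that exon.

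Junctions outside the annotation took a small part of each gene's reads. The share was 0.216% in Sftpc, 0.539% in Sftpb, 0.555% in Sftpa1 and 1.34% in Sftpd, and the median such junction had 1 or 2 reads. The highest was in Sftpb, where 561 reads left the exon 10 donor for an unannotated acceptor 112 bases on. A junction of 73 reads skipped the 81-base exon 9 of Sftpb. In Sftpa1 the highest had 94 reads over an intron of 546 bases.

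Contigs, the stretches of continuous read coverage deposited for the series on mm9, ran past the annotated ends of all 4 genes. Their signal is on the authors' scale and has no replicates. The coding strand of Sftpc lay in 1 contig of signal 863 that reached 928 bases ahead of the annotated start and 6211 bases past the annotated 3′ end. Bmp1, a metalloprotease gene on the same strand, begins 715 bases past the end of Sftpc, so that this contig covers part of it. The gene-level value of Bmp1 was 41.4 and 40.7 TPM. The contig of Sftpb had a signal of 508 and reached 2769 bases past the 3′ end, and that of Sftpa1 had 151 and reached 3931 bases.

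Sftpd was covered by 7 contigs on its own strand, with signals of 17.5 and 16.4 for the longest and at most 0.823 for the others, and the coverage reached 4660 bases past its 3′ end. Sftpa1 and Sftpd lie 35762 bases apart with another collectin gene, Mbl1, between them. Mbl1 stood at 0.23 and 0.68 TPM (6 and 17 counts). Both flanking collectin genes stood far above it, at 1032 TPM or more for Sftpa1 and 220 TPM or more for Sftpd.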

How the data were processed

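Lung RNA-seq of 2 libraries of 1 group was used as deposited. Deposited expected counts, per gene and per transcript, are named so in the file headers and were taken as estimates of fragments without normalization. TPM and FPKM are the authors' values, also named in the file headers. TPM was taken as length-scaled, and it sums to the same total in each library with spike-ins counted. FPKM was taken as scaled by length and depth. A transcript's percent of its gene was computed by the authors. Junction read counts, contig signal and the reproducibility score come from the authors' pooled lists on mm9, and how they were computed is not stated in the sources used here. Quantification used mm10 with GENCODE M4, per the deposited file lists; aligner and quantifier are not named there.

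Members and lists were chosen with earlier results of these data known. Symbols, coordinates, exons and sequences came from GENCODE M21. Symbols were found for 42462 of 43346 genes, and 7 of the 9 member transcripts have the same length in both releases. The text names the members with all their transcripts, genes of the 16 lists and the 3 genes nearest to each member on log2(TPM + 1). From lists of more than 10 genes it names the highest and lowest by mean TPM and those 2-fold apart. From shorter lists it names examples, chosen with their values known. Rounded expected counts were scaled with edgeR 4.0.16 (TMM, prior count 2) or DESeq2 1.42.0 under R 4.3.3, and intervals came from scipy. Log2 ratios are replicate 2 over replicate 1. A fold divides TMM-scaled counts and has a Clopper-Pearson interval. The robust SD is the scaled median absolute deviation over genes that reached a mean count of 10. The ratio calculation was run on simulated libraries, with changes larger than those of the members. That checks the calculation and not the ratios reported here. Junctions on mm9 were matched to transcripts by intron and exon lengths, with no conversion of coordinates. The junction list's tallies of single libraries carry no replicate label, so only sums were used. Alternatives covered scalings, thresholds, count minimums, other estimates of the level and leaving out either library.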

Additional observations from a re-analysis of the deposited data

Results flagged for a closer look

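These signals lie outside the annotated exon junctions or on the opposite strand, in lists that pool both libraries. Reads joined the annotated start of Sftpc exon 2 to donors outside the gene: 161 reads came from a site 11838 bases ahead of the annotated gene and 160 from a site 7958 bases ahead of it. The annotated junction into that exon had 173532. In Sftpb, 97 reads left an annotated donor for a site 238484 bases past the gene, beside 74548 on the annotated junction from that donor. Contigs on the opposite strand had a signal of 0.415 within Sftpb and 0.127 within Sftpd, against 508 and 17.5 on the coding strand. They covered 299 and 99 bases. Their reproducibility scores were 0.01 and 0.45, against 0 for those 2 coding-strand contigs, so the Sftpb and Sftpd signals are not of equal standing. No group without these signals was at hand for comparison.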

How the results depend on the processing

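The count of members 2-fold apart stayed at 0 under DESeq2 size factors, library size, FPKM and log2(TPM + 0.1). A minimum of 10 counts or no minimum could not change it, because the lowest mean count of a member was 9276.5 (Sftpd). The count of members apart was 1 at 1.5-fold and 1 when scaled by spike-in counts, Sftpb in both. On spike-in counts the log2 ratio of Sftpb was 1.05, the median gene moved to 0.35 and 9.86% of genes were 2-fold apart. The log2 ratio of Sftpb was above 0 under all 6 scalings (0.46 to 1.05); Sftpd was above 0 in 3, Sftpa1 in 4 and Sftpc in 5. The share of gene TPM became 1.80% of expected counts, and without replicate 1 or replicate 2 it was 3.09% or 2.98%. The main transcript's share rose to 82.3% for Sftpb-202 and 84.6% for Sftpa1-202 by expected counts. No paired analysis was possible because the series has 1 group. With 2 libraries, an SD rests on a single difference, and the junction and contig values have none. The transcript split of Sftpb depends on the annotation, and depth limits Sftpd most.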
